A study of Mus musculus with 4 samples.

Results

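The genes described here are 38 genes of cell division, the mitosis and spindle genes, chosen by their known function in the G2 and M phases, at the kinetochore, on the spindle and in cytokinesis. No measured value entered that rule, although earlier results of these data were known when the list was made. They are 38 of the 78275 genes of the count table, and all 38 were among the 19736 genes with enough counts to be tested. Their RNA was measured by bulk RNA-seq in 2 libraries from Sirt7-/- mice and 2 libraries from WT mice, at postnatal day (Pnd) 5. SIRT7 is a nuclear deacetylase of the sirtuin family, and both genotypes were kept on a 129S1/Sv background. The sources name no promoter or Cre line that would limit the deletion to germ cells. Each library came from 200000 cells that had been enriched for spermatogonia by plating off somatic cells, without sorting. The study reports that most cells of such preparations stain for PLZF, a protein of undifferentiated spermatogonia. The staining it shows is of WT cells. The sources do not give the number of mice behind a library.

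Spermatogonia are the mitotic germ cells of the testis. At Pnd 5 they divide again after the quiescence of the fetal gonocyte, and the Sertoli cells around them divide too. Entry into mitosis is driven by CDK1 bound to cyclin B, with the Polo and Aurora kinases. The chromosomes then attach to the spindle through their kinetochores, and a checkpoint holds back anaphase until all are attached. Separase finally cuts the cohesin between sister chromatids, and the central spindle places the furrow that divides the cell. Most of these genes are transcribed in G2 and M, so that their RNA in a bulk sample follows the share of cells in those phases. In bulk samples, fewer cells of a type and less RNA per cell cannot be told apart.

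No mitosis or spindle gene passed the test for a difference between the genotypes after correction for multiple testing. Of the 38, 0 were called at an adjusted p under 0.1 (edgeR's quasi-likelihood test, p-values adjusted by Benjamini-Hochberg over all 19736 genes), and over all genes edgeR called 17, which is 0.0861%. DESeq2 and limma-voom also called 0 of the 38, where over all genes DESeq2 called 0.335% of 14333 and limma-voom 0.0608% of 19736. At an unadjusted p under 0.05, 1 of the 38 genes was higher in Sirt7-/- cells, against 4.48% of all genes tested, and 0 were lower, against 4.14% of all genes. The 1 gene was Plk1, at a log2 fold change of 0.23 ± 0.07 (SE). Log2 fold changes are Sirt7-/- over WT throughout, and each ± after one is the SE. The 38 ran from -0.14 for Mki67 to 0.23 for Plk1, with a median of 0.0567, beside a median of 0.00286 over all genes tested. The 95% intervals of the 38 fold changes all lay between 0.785 and 1.30 times the WT level, so that at this depth and replication larger differences in either direction fell outside the interval of each gene.

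The libraries were alike in depth, with 22007504 to 22181066 counts each, and Sirt7 itself was at 5.87 and 5.55 CPM (counts scaled by TMM to a library of 1000000) in Sirt7-/- cells, against 32.0 and 31.2 CPM in WT cells. Sirt7-/- libraries differed more from each other than WT libraries did in the genes of division and in the summed germ cell, Sertoli cell, stromal and erythroid markers. The 10 germ cell markers, among them Zbtb16 (which encodes PLZF), Ddx4 and Dazl, summed to 2521 CPM in Sirt7-/- replicate 1 and 2269 CPM in Sirt7-/- replicate 2, against 2299 and 2371 CPM in the WT libraries. All 10 were higher in Sirt7-/- replicate 1 than in replicate 2. The 10 Sertoli cell markers, among them Sox9, Amh and Clu, went the other way, at 2158 CPM in Sirt7-/- replicate 1 and 2697 CPM in replicate 2, against 2440 and 2381 CPM in WT. The 10 peritubular and stromal markers summed to 1387 and 1691 CPM in Sirt7-/- cells, and to 1500 and 1689 CPM in WT cells. Within this list 3 of the 10 were called lower in Sirt7-/- cells, among the 17 called genes in all. They were the matrix genes Postn (log2 fold change -1.47 ± 0.19, adjusted p = 0.0261), Col3a1 (-0.45 ± 0.07, adjusted p = 0.0924) and Dcn (-0.54 ± 0.09, adjusted p = 0.0924, edgeR for all), and their part in the values of the 38 genes was not tested. All 5 erythroid markers were higher in both Sirt7-/- libraries than in both WT libraries, and their sum was 1536 and 1152 CPM in Sirt7-/- cells against 1017 and 924 CPM in WT cells. None of these markers was at 0. Markers of Leydig cells, endothelium and macrophages summed to at most 104 CPM per list in any library. In these lists the median of the signed log2 differences between replicates was larger in size in WT. Opposite signs cancel in that median, and the Leydig cell markers ran from -0.41 to 1.63 between the Sirt7-/- libraries.

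**Figure D1:**
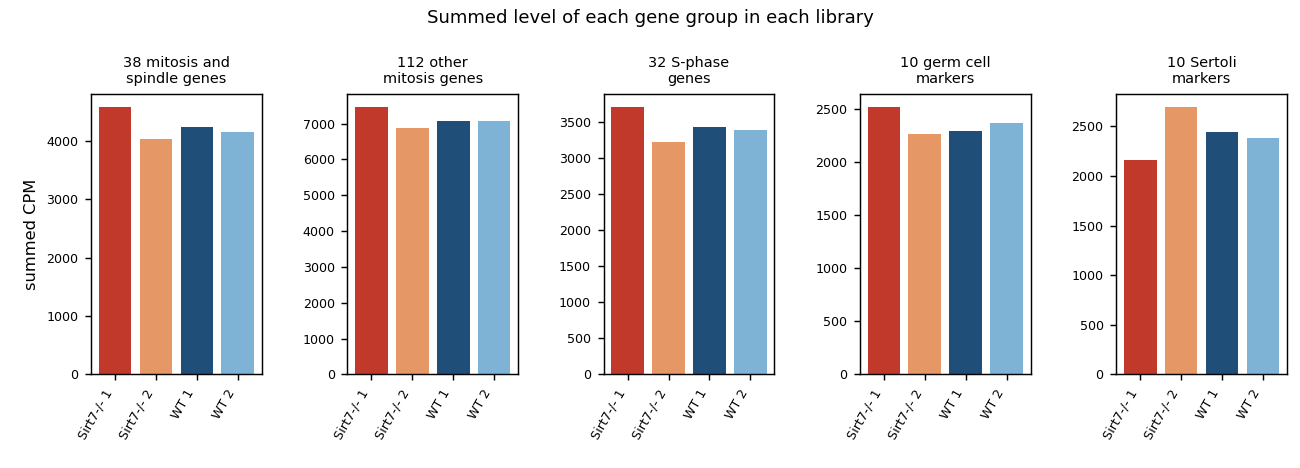
Summed CPM of 5 gene groups in each library, with a bar for each library, Sirt7-/- left of WT, and a scale of its own for each group. The 38 mitosis and spindle genes, the 32 S-phase genes and the germ cell markers were highest in Sirt7-/- replicate 1 (4576, 3710 and 2521 CPM), whereas the Sertoli cell markers were lowest there (2158 CPM).

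Many genes of late cell cycle share promoter elements, counted here over the members with a promoter window and printed for some of them. The cell cycle homology region (CHR) is the site at which the MuvB complex, with B-MYB or FOXM1, binds such promoters, and the CCAAT box is the site of the factor NF-Y. Promoter windows of 300 bases, from 250 bases before to 50 bases after a RefSeq start (GRCm38.p6 table), were found for 31 of the 38 genes. TTTGAA or TTCGAA (CHR) was searched on both strands, as was CCAAT. In 1 gene, Cdca8, a CHR and a CCAAT shared bases. A CHR stood in the window of 24 of the 31 genes (77.4%), against 16.7% of the 12568 tested genes with a window. A CCAAT stood in 24 of 31 (77.4%), against 42.9% of tested genes, and 22 genes (71.0%) held both, against 7.11% of tested genes. In 23 genes a CHR began at -50 or later, close to or just past the start. An E2F-type motif, TTTGGCGC or TTTCCCGC, stood in 0 of the 31 windows and in 3.13% of tested genes.

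Stretches of the windows of 4 mitotic entry genes are given 5′ to 3′ on the strand of the gene, with CHR and CCAAT in capitals (ATTGG is CCAAT on the other strand). Coordinates are GRCm39 and are those of the printed stretch, found by an exact match to the genome. The Plk1 window (chr7:121758538-121758707, plus strand) holds 1 CCAAT at -14 and 1 CHR at 31. Those of Aurka (chr2:172212441-172212610, minus strand), Ccnb2 (chr9:70328787-70328956, minus strand) and Ccnb1 (chr13:100922945-100923114, minus strand) hold CCAAT boxes in a row. Their first bases lay 32 apart in Ccnb1 and in Aurka and 33 apart in Ccnb2. The Ccnb1 window held no CHR of these letters. Relative to the RefSeq start, the canonical GENCODE transcript began at -12 for Plk1, -38 for Ccnb2, -122 for Ccnb1 and -328 for Aurka. By GENCODE, parts of the Plk1, Ccnb2 and Ccnb1 windows and all of the Aurka window therefore lie downstream of the start.
Plk1: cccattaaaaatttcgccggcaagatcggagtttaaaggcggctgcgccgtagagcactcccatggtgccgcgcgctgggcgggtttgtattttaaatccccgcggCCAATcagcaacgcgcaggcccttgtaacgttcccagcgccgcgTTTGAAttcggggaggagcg
Aurka: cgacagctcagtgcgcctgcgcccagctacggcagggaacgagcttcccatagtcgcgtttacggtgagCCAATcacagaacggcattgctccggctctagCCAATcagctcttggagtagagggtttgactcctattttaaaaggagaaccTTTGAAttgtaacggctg
Ccnb2: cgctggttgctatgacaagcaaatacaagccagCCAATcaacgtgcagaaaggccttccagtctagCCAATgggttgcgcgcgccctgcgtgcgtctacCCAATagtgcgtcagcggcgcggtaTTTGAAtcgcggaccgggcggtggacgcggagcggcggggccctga
Ccnb1: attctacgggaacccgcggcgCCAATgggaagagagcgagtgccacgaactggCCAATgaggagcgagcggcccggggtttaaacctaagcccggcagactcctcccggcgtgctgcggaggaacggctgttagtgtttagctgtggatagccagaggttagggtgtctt

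Stretches of the windows of Cdc20, Cenpa and Mki67 are shown for the anaphase activator, the centromeric histone with one of the larger positive values, and the gene with the lowest value. The Cdc20 window (chr4:118294491-118294660, minus strand) has its CHR between 2 CCAAT boxes. In Cenpa (chr5:30824110-30824279, plus strand) both CCAAT boxes are on the other strand. In Mki67 (chr7:135318188-135318308, minus strand) 3 CCAAT boxes stand before 2 CHR copies, all upstream of the RefSeq start. Relative to that start, the canonical GENCODE transcript began at -191 for Mki67, -109 for Cenpa and -70 for Cdc20. By GENCODE the motifs of Mki67 therefore all lie downstream of the start.
Cdc20: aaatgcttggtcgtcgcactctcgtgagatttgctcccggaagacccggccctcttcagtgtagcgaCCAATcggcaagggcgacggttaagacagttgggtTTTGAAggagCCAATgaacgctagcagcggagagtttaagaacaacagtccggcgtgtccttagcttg
Cenpa: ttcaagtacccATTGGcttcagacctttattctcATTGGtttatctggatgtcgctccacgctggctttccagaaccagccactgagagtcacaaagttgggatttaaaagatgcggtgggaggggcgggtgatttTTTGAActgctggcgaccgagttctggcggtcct
Mki67: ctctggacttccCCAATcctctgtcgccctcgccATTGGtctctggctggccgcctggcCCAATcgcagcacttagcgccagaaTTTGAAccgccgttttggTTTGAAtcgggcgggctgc

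Pairs of CCAAT boxes on the same strand, 28 to 36 bases apart, stood in 6 of the 31 windows (19.4%) and in 2.78% of tested genes, a measure chosen after the spacings had been seen. The 22 genes with CHR and CCAAT had a median log2 fold change of 0.0551, the other 9 had 0.0517, and Plk1 and Mki67, the 2 ends of the range, both held both motifs. Over all tested genes with a window, the median was 0.0115 in the 894 with CHR and CCAAT and 0.000704 in the other 11674.

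**Figure D2:**
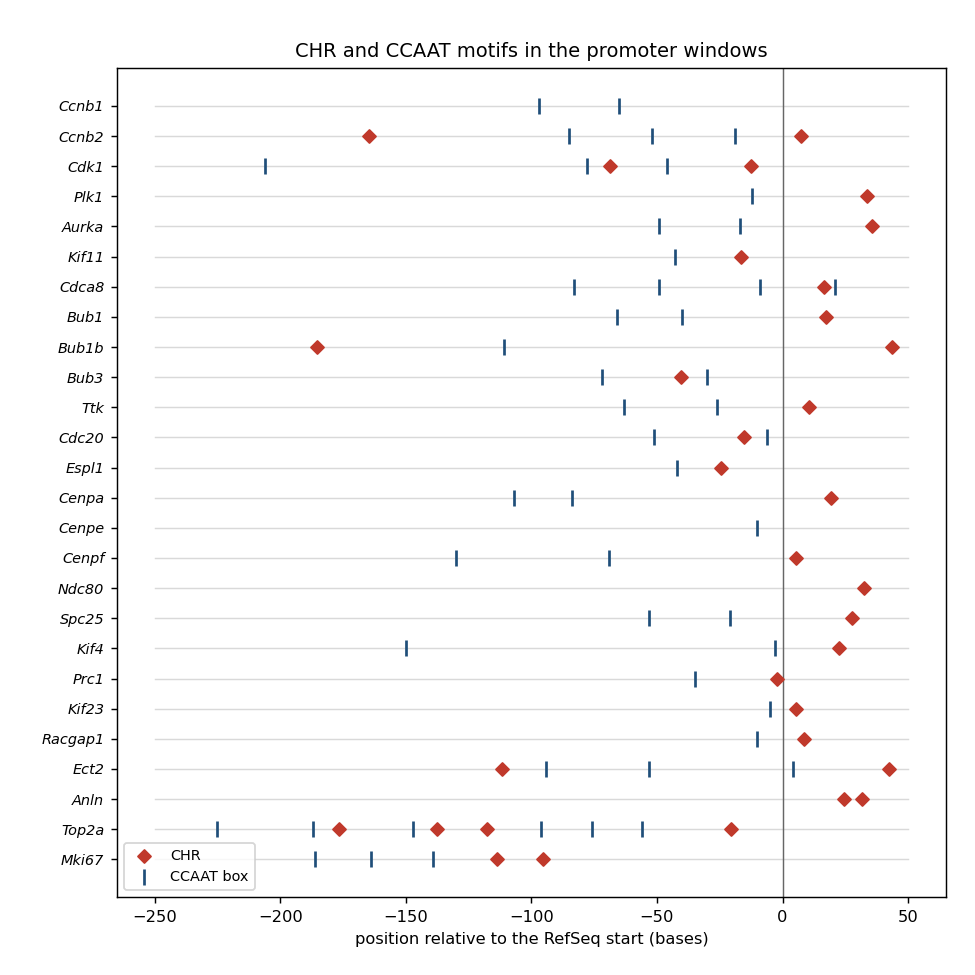
Positions of CHR (diamonds) and CCAAT (bars) relative to the RefSeq start, in bases, in the first window of each of the 26 genes that held either. In 19 of the 22 genes with both motifs the last CHR lies downstream of the last CCAAT, as in Ccnb2 and Aurka. The windows of Birc5, Mad2l1, Pttg1, Nuf2 and Mybl2 held neither.

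The cyclins of M phase and their kinase differed little between the genotypes. The 4 genes summed to 450.0 and 393 CPM in Sirt7-/- cells, and to 411 and 399 CPM in WT cells. Ccna2, the cyclin that acts from S phase into early mitosis, had 125 and 105 CPM in Sirt7-/- cells, against 105 and 103 CPM in WT cells. Both Sirt7-/- libraries were above both WT libraries, the second only by a small margin, and the log2 fold change was 0.15 ± 0.08 (adjusted p = 0.649, edgeR). Ccnb1, the main mitotic cyclin, had 207 and 185 CPM in Sirt7-/- cells, against 194 and 195 CPM in WT cells. The WT libraries lay between the Sirt7-/- libraries, and the log2 fold change was 0.01 ± 0.07. Ccnb2, the second B-type cyclin, gave 0.07 ± 0.11 and Cdk1, the kinase itself, 0.02 ± 0.08. Per kilobase of canonical transcript, Ccnb1 stood at 77.7 CPM in Sirt7-/- cells and 77.1 CPM in WT cells, and Cdk1 at 12.8 CPM in Sirt7-/- cells and 12.6 CPM in WT cells.

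Among the kinases of mitotic entry and the spindle assembly factors, Plk1 had the largest positive fold change of the 38 genes. Plk1, the Polo kinase that promotes entry, spindle formation and cytokinesis, had 1475 and 1430 counts in Sirt7-/- cells, against 1256 and 1237 counts in WT cells. These are 67.1 and 65.1 CPM in Sirt7-/- cells and 57.0 and 55.8 CPM in WT cells, and the genotypes did not overlap. Its log2 fold change of 0.23 ± 0.07 had an unadjusted p of 0.00837 and an adjusted p of 0.444 (edgeR's quasi-likelihood test), so that the difference did not pass the correction. It stayed positive in every leave-out of a library, from 0.21 without Sirt7-/- replicate 1 to 0.25 without Sirt7-/- replicate 2, and its libraries of 1 genotype differed by only 0.04 (Sirt7-/-) and 0.03 (WT) on the log2 scale. Plk1 lies on chromosome 7 at 121758646 to 121769108 (GRCm39, plus strand).

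Aurka, the Aurora kinase of the centrosome and spindle poles, had 63.9 and 55.2 CPM in Sirt7-/- cells, against 56.1 and 55.7 CPM in WT cells. Sirt7-/- replicate 1 was the highest and Sirt7-/- replicate 2 the lowest of the 4 libraries. Cstf1, which overlaps Aurka on the other strand, held 138% of the counts of Aurka. The strand setting of the counting is not given in the sources used here, so reads of the 2 genes may not be fully told apart. Tpx2, which activates Aurora A on spindle microtubules, gave a log2 fold change of -0.01 ± 0.07. Kif11, the motor that pushes the spindle poles apart, gave 0.01 ± 0.09 and had a wide gap within Sirt7-/- cells, at 124 and 98.3 CPM, against 111 and 109.5 CPM in WT cells.

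All 4 genes of the chromosomal passenger complex, which corrects faulty attachments and later acts at the midzone, had positive values and none passed the test. They summed to 466 and 407 CPM in Sirt7-/- cells and to 407 and 401 CPM in WT cells. Aurkb, its kinase, had 68.7 and 60.9 CPM in Sirt7-/- cells, against 57.7 and 57.7 CPM in WT cells, and the genotypes did not overlap. The log2 fold change was 0.17 ± 0.08 (unadjusted p = 0.0583, adjusted p = 0.588, edgeR). Cdca8, which encodes the subunit borealin, had 149 and 126 CPM in Sirt7-/- cells, against 128 and 125 CPM in WT cells, with Sirt7-/- replicate 2 between the WT libraries (0.12 ± 0.08). Incenp, the scaffold, and Birc5, which encodes survivin, each gave 0.09, with SEs of 0.07 and 0.08.

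The 8 genes of the spindle checkpoint and the anaphase trigger had log2 fold changes of 0.03 (Bub1b) to 0.11 (Bub1), all positive and none past the test. They summed to 1028 and 932 CPM in Sirt7-/- cells, and to 940.3 and 939.6 CPM in WT cells. Only Sirt7-/- replicate 1 stood apart in this sum. Cdc20, which activates the anaphase-promoting complex once the checkpoint is satisfied, had 215 and 196 CPM in Sirt7-/- cells, against 198 and 196 CPM in WT cells (0.06 ± 0.07). Per kilobase of transcript it had the highest level of the 38 genes, at 111 CPM in Sirt7-/- cells and 106 CPM in WT cells. Bub1, a checkpoint kinase at the kinetochore, had 96.9 and 78.9 CPM in Sirt7-/- cells, against 83.8 and 79.0 CPM in WT cells, so that the Sirt7-/- libraries were the highest and the lowest of the 4. The genotypes did not overlap in 2 of these 8 genes. They were Bub3, the partner of both BUB kinases, and Pttg1, the securin that holds separase inactive. In both, the Sirt7-/- libraries were above the WT libraries, as in 20.3% of all genes tested. Pttg1 had 39.2 and 38.9 CPM in Sirt7-/- cells, against 37.3 and 36.7 CPM in WT cells (0.08 ± 0.08, adjusted p = 0.822, edgeR). Slu7, on the other strand across Pttg1, held 192% of its counts. Mad2l1, which encodes the checkpoint protein MAD2, the kinase gene Ttk and the separase gene Espl1 gave 0.05, 0.06 and 0.05.

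Centromere and kinetochore genes showed the widest gap between the Sirt7-/- libraries, with a median log2 difference of 0.305 between replicate 1 and replicate 2, against 0.065 between the WT libraries. Their sum was 667 and 556 CPM in Sirt7-/- cells, and 615 and 584 CPM in WT cells. Cenpa, the histone H3 variant that marks the centromere, had 128 and 113 CPM in Sirt7-/- cells, against 111 and 105 CPM in WT cells. The genotypes did not overlap, and the log2 fold change was 0.16 ± 0.08 (unadjusted p = 0.0571, adjusted p = 0.586, edgeR). Cenpe, the kinetochore motor that moves chromosomes to the metaphase plate, had 120.0 and 97.0 CPM in Sirt7-/- cells, against 121 and 112 CPM in WT cells (-0.10 ± 0.09). Cenpf, a large protein of the outer kinetochore, had 237 and 192 CPM in Sirt7-/- cells, against 222 and 207 CPM in WT cells. Its log2 fold change was 0.00 ± 0.09, with the WT libraries between the Sirt7-/- libraries. The 4 genes of the NDC80 complex, which binds the microtubule end, gave 0.06 (Ndc80), 0.03 (Nuf2), 0.06 (Spc24) and 0.11 (Spc25). Spc24 and Spc25 did not overlap between the genotypes, whereas Ndc80 and Nuf2 had the WT libraries between the Sirt7-/- libraries.

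The central spindle and cytokinesis genes summed to 805 and 752 CPM in Sirt7-/- cells, and to 769.5 and 743 CPM in WT cells. Prc1, which bundles the antiparallel microtubules of the midzone, had 144 and 132 CPM in Sirt7-/- cells, against 127 and 129 CPM in WT cells, without overlap (0.11 ± 0.07, adjusted p = 0.691, edgeR). Kif20a, a midzone motor, had 108 and 95.5 CPM in Sirt7-/- cells, against 94.7 and 92.1 CPM in WT cells, also without overlap (0.12 ± 0.07, adjusted p = 0.683, edgeR). Brd8 and Cdc23 overlap Kif20a on the other strand with 153% and 73.5% of its counts. Kif23 and Racgap1 encode the 2 proteins of centralspindlin, and gave -0.03 ± 0.07 and 0.05 ± 0.06. Kif23 was the only gene of the 38 that was not higher in Sirt7-/- replicate 1 than in replicate 2, at 153 and 154 CPM in Sirt7-/- cells, against 164 and 149 CPM in WT cells. Ect2, which activates RhoA at the furrow, and the furrow scaffold Anln gave 0.05 ± 0.07 and 0.01 ± 0.07, and Kif4, the chromokinesin, -0.05 ± 0.09.

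The last group joins the chromosome proteins Top2a and Mki67 with the transcription factors Foxm1 and Mybl2. Their sum was 781 and 654 CPM in Sirt7-/- cells, and 750.1 and 738 CPM in WT cells. Mki67, which encodes the Ki-67 protein of the chromosome surface and is the usual marker of cycling cells, had the lowest fold change of the 38 genes. It had 219.5 and 176 CPM in Sirt7-/- cells, against 226 and 211 CPM in WT cells, where Sirt7-/- replicate 1 lay between the WT libraries and replicate 2 below them. The log2 fold change was -0.14 ± 0.09 (unadjusted p = 0.151, adjusted p = 0.70, edgeR). Top2a, the topoisomerase that untangles sister chromatids, had 335 and 278 CPM in Sirt7-/- cells, against 324 and 318 CPM in WT cells (-0.06 ± 0.08). Foxm1 and Mybl2, whose proteins bind the CHR promoters above with MuvB, both gave 0.06, with SEs of 0.07 and 0.08. Rhno1 on the other strand held 39.2% of the counts of Foxm1.

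**Figure D3:**
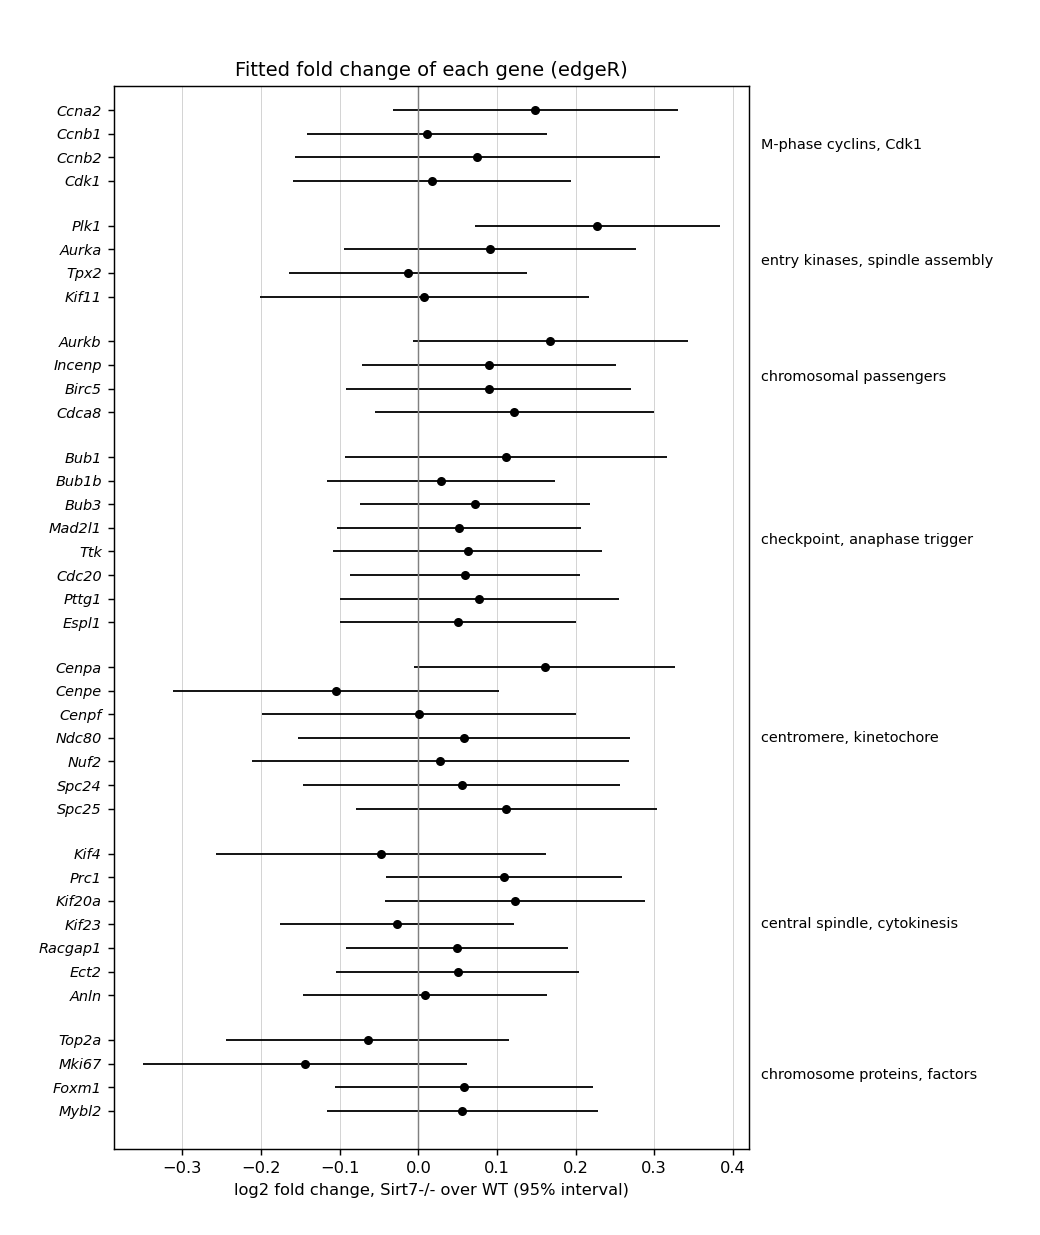
Log2 fold change of each of the 38 genes, Sirt7-/- over WT, with its 95% interval from the edgeR fit, grouped by role. The interval of Plk1 (0.07 to 0.38) is the only one that does not include 0, and no gene passed the adjusted threshold.

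Over the 38 genes, 32 had a positive log2 fold change and 6 a negative one (Mki67, Cenpe, Top2a, Kif4, Kif23 and Tpx2). Over all genes tested, 50.6% were positive in the same fit. The split was 29 to 9 with libraries scaled by total counts and 25 to 13 with libraries scaled by the germ cell markers. These scalings moved all genes too. With total counts the median was -0.00785 over all genes and 0.0458 over the 38. With the germ cell markers it was -0.0315 over all genes and 0.0197 over the 38. In 12 of the 38 both Sirt7-/- libraries were above both WT libraries, against 20.3% of all genes tested, and in 0 were both below, against 19.4% of all genes. The 12 were Ccna2, Plk1, Aurkb, Birc5, Bub3, Pttg1, Cenpa, Spc24, Spc25, Prc1, Kif20a and Racgap1. The genes are transcribed together in cycling cells, so that 12 of 38 are not 12 independent observations. The erythroid markers were also higher in both Sirt7-/- libraries, in 5 of 5, and their part in these values was not tested.

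In most of the genes the gap between the 2 Sirt7-/- libraries was larger than the difference between the genotypes. Of the 38 genes, 37 were higher in Sirt7-/- replicate 1 than in replicate 2, against 47.8% of all genes tested and 55.5% of the 7053 genes within the same range of mean CPM. The median log2 difference between the Sirt7-/- libraries was 0.164, and the largest was 0.34, in Nuf2. Between the WT libraries the median was 0.0230, and 25 of the 38 genes were higher in WT replicate 1. In 32 of the 38 genes the gap between the Sirt7-/- libraries was larger than the fold change between the genotypes, against 59.7% of all genes. The 38 genes summed to 4576 CPM in Sirt7-/- replicate 1 and 4027 CPM in Sirt7-/- replicate 2, with the WT libraries between them at 4237 and 4148 CPM. Divided by the sum of the germ cell markers, a ratio chosen after these values had been seen, the 38 genes stood at 1.81 and 1.78 in Sirt7-/- cells, against 1.84 and 1.75 in WT cells. On that scale the sum of the 38 in the 2 Sirt7-/- libraries lay within the range of the WT libraries. Single genes went both ways there. With libraries scaled by these markers, both Sirt7-/- libraries were above both WT libraries in 11 genes and below them in 4.

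**Figure D4:**
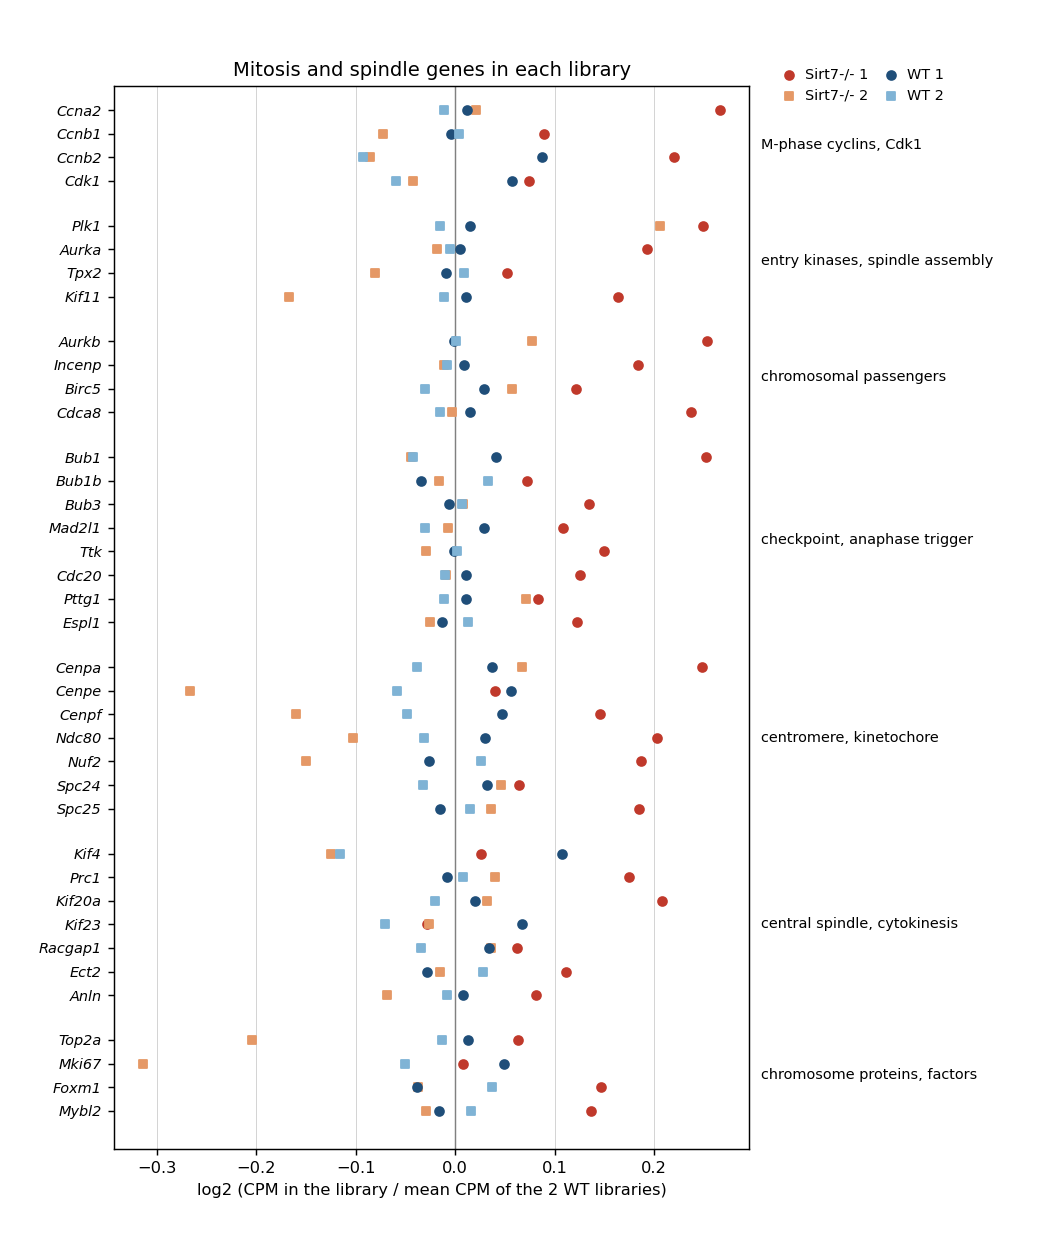
CPM of each of the 38 genes in each library, as log2 of its ratio to the WT mean, with Sirt7-/- libraries in red and orange and WT libraries in blue. Sirt7-/- replicate 1 lies to the right of Sirt7-/- replicate 2 in 37 of the 38 genes, and both lie to the right of both WT libraries in 12.

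The direction over the group depended on which Sirt7-/- library was used. Without Sirt7-/- replicate 2, 37 of the 38 genes were positive, the median log2 fold change was 0.1395, and 20 genes were higher at an unadjusted p under 0.05, against 6.57% of the genes then tested. In that fit 3 were called higher, against 0.838% of all genes. They were Ccna2 (0.27, adjusted p = 0.0617), Cdca8 (0.24, adjusted p = 0.0791) and Cenpa (0.25, adjusted p = 0.0857, edgeR for all). Without Sirt7-/- replicate 1, 12 of the 38 genes were positive, the median was -0.0218, and 20 genes changed sign. In that fit 0 were called, and 5 genes (Mki67, Top2a, Cenpe, Kif11 and Cenpf) were lower at an unadjusted p under 0.05, against 4.68% of all genes, and 1 gene (Plk1) was higher, against 5.48% of all genes. Over all genes 0.0382% were called in that fit. Each of these fits has a single Sirt7-/- library, whose spread is assumed to be that of the WT pair. Leaving out a WT library gave medians of 0.0761 and 0.0624, with 0 of the 38 called and 0 called over all genes in either fit.

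**Figure D5:**
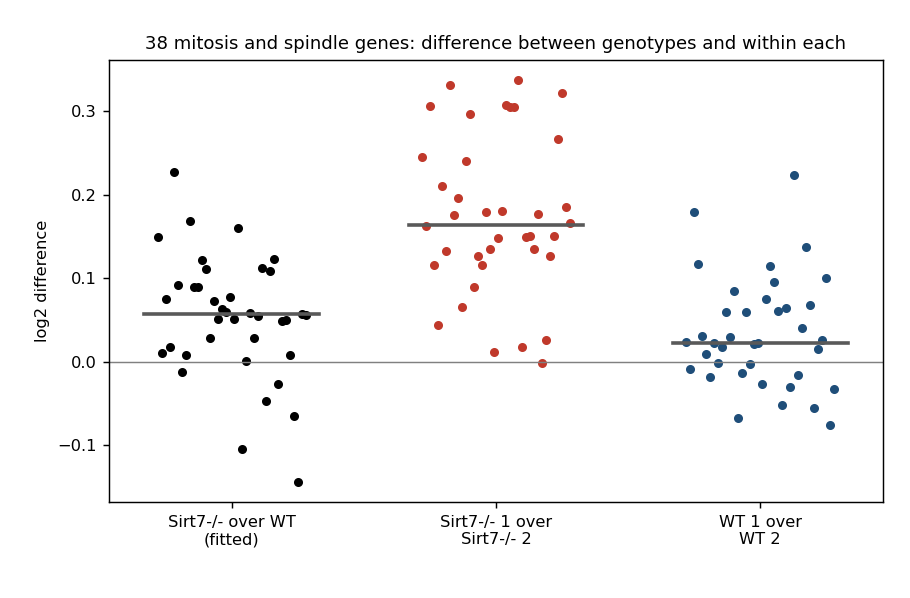
Log2 differences of the 38 genes between the genotypes (fitted), between the Sirt7-/- libraries and between the WT libraries, with a point for each gene and a line at the median. The medians were 0.0567, 0.164 and 0.0230.

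Longer transcripts tended to have lower fold changes. Spearman's correlation of canonical transcript length with log2 fold change was -0.565 across the 38 genes, and -0.323 across the 10057 genes with a mean of at least 10 CPM, a description across genes of the same libraries. The 10 genes with a transcript of 5000 bases or more had a median log2 fold change of 0.00486, and 4 of them were negative (Mki67, Cenpe, Top2a and Kif4). The 28 shorter ones had a median of 0.0611, and 2 were negative. Among all genes with at least 10 CPM the medians were -0.0334 for 2912 long and 0.024 for 7145 shorter transcripts.

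Levels per kilobase of canonical transcript differed far more between the 38 genes than between libraries. After Cdc20, the highest were Cdca8 (84.1 CPM in Sirt7-/- and 77.2 CPM in WT), Cenpa (82.4 CPM in Sirt7-/- and 73.7 CPM in WT), Ccnb1 and Top2a (58.5 CPM in Sirt7-/- and 61.1 CPM in WT). Kif4 was the lowest, at 8.97 CPM in Sirt7-/- cells and 9.27 CPM in WT cells. The order depended on the length used. With the union of all annotated exons in WT cells, Cdc20, Ccnb1 and Top2a were the first 3, and Cenpa stood at rank 35 of 38.

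Other genes of division were set beside the 38. Of 112 further mitosis genes, 0 were called. At an unadjusted p under 0.05, 5 were higher, against 4.48% of all genes tested, and 2 were lower, against 4.14% of all genes. The median log2 fold change of the 112 was 0.0145. The 2 with the smallest p were Cdca3, part of a ligase that marks the mitotic inhibitor WEE1 for degradation, and Cks2, a subunit that binds CDK1. Cdca3 had 65.9 and 57.0 CPM in Sirt7-/- cells, against 53.0 and 51.8 CPM in WT cells (0.23 ± 0.08, adjusted p = 0.501, edgeR). Cks2 had 8.32 and 8.56 CPM in Sirt7-/- cells, against 6.72 and 6.50 CPM in WT cells (0.35 ± 0.13, adjusted p = 0.508, edgeR). The most abundant were the importin gene Kpna2 (0.11 ± 0.07) and Anapc1, the largest subunit of the anaphase-promoting complex (-0.07 ± 0.06). Of the 112, 98 were higher in Sirt7-/- replicate 1 than in replicate 2, against 47.8% of all genes tested.

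Genes of the S phase were set beside them as the phase before. Of 32 S-phase and replication genes, 0 were called, and the median was 0.0211. At an unadjusted p under 0.05, 2 were higher, against 4.48% of all genes tested, and 0 were lower, against 4.14% of all genes. Of the 32, 29 were higher in Sirt7-/- replicate 1 than in replicate 2, against 47.8% of all genes. Pcna, the sliding clamp of DNA polymerase, had 104 and 94.5 CPM in Sirt7-/- cells, against 90.3 and 83.4 CPM in WT cells (0.19 ± 0.08, adjusted p = 0.511, edgeR). Gins4, of the replicative helicase, gave 0.19 ± 0.08 (adjusted p = 0.575, edgeR). The helicase genes Mcm2 and Mcm7, the most abundant of the list, both gave 0.02 ± 0.08. The list summed to 3710 and 3221 CPM in Sirt7-/- cells, and 3436 and 3394 CPM in WT cells.

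Paralogues of the 38 genes show which family members these cells expressed. Of 12 paralogues 11 were tested, and 0 were called or had an unadjusted p under 0.05. Of the 11, 6 were higher in Sirt7-/- replicate 1 than in replicate 2, against 47.8% of all genes tested. Top2b, the topoisomerase II that is present in dividing and in resting cells, had 59.2 and 68.8 CPM in Sirt7-/- cells, against 69.2 and 70.8 CPM in WT cells, with the Sirt7-/- libraries in the reverse order of Top2a. Plk2, a Polo kinase of stress responses, had 212 and 205 CPM in Sirt7-/- cells, against 180.1 and 198 CPM in WT cells (0.14 ± 0.07, adjusted p = 0.599, edgeR). Paralogues known from meiosis were low. Aurkc, the Aurora kinase of meiotic cells, stood at 1.74 CPM per kilobase in Sirt7-/- cells and 1.86 in WT cells, where Aurkb stood at 33.1 in Sirt7-/- cells and 29.4 in WT cells. Ccnb3 was at 1.15 CPM per kilobase in Sirt7-/- cells and 1.05 in WT cells, and Ccna1, the cyclin A of spermatocytes, had 7 and 7 counts in Sirt7-/- cells, against 4 and 9 counts in WT cells, too few to be tested.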

How the data were processed

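The deposited values are whole-number counts of reads per gene, which the authors made by aligning trimmed paired reads of 150 bases to GRCm39 with HISAT2 and counting them with featureCounts. Not given in the sources used here are the tool versions, the annotation, the strand setting and how multi-mapping reads were handled, so genes that overlap or have pseudogenes may share reads. Library preparation was strand-specific. Of 78275 identifiers, 78263 matched GENCODE M39, which gave symbols, positions and transcript lengths.

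Groups came from the sample labels. The methods of the study call the RNA-seq replicates biological and independent, and the labels only number them. Sirt7-/- was compared with WT in R 4.3.3 with edgeR 4.0.16, using filterByExpr with a minimum count of 10, TMM scaling (factors 0.994 to 1.00), the quasi-likelihood F test and Benjamini-Hochberg adjustment over the 19736 genes tested, called under 0.1. CPM are per 1000000 counts. Intervals are 95% intervals of the fit. With 2 libraries a group, 22007504 to 22181066 counts per library set the counting precision. Members were chosen by function, and members and gene lists with earlier results of these data known. All members could be named, and from other lists every called gene, or else the 2 most abundant and the 2 with the smallest p. Alternatives were DESeq2 1.42.0, limma-voom (limma 3.58.1), other scalings, filters and thresholds, a replicate block, and leaving out single libraries. The test was checked on simulated counts, with changes larger than those of any member, so the check does not cover changes of the size seen in the members.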

Additional observations from a re-analysis of the deposited data

How the results depend on the processing

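Leaving out each library in turn gave 0 to 3 called genes among the 38, 0 to 4 among the 112 further mitosis genes and 0 to 1 among the 32 S-phase genes, and the calls came only without Sirt7-/- replicate 2. In that fit Cdca3, Kif2c, Ccnf and Cenpp of the further list and Pcna were called higher, against 0.838% of all genes tested there. That fit has a single Sirt7-/- library, whose spread is assumed to be that of the WT pair, and its calls rest on this assumption. The median log2 fold change of the 38 ran from -0.0218 to 0.1395 over these fits. With libraries scaled by the summed germ cell markers, chosen after seeing the data, 0 of the 38 were called, and 0.0304% of all genes. The median was 0.0197 beside -0.0315 over all genes, and 7 genes changed sign. In 11 genes both Sirt7-/- libraries were above both WT libraries, and in 4 both were below. The shares of all genes that did so on that scale were not computed. Total-count scaling, DESeq2 size factors, limma-voom, DESeq2 itself, the 1 CPM filter, no filter and a threshold of 0.05 called 0 of the 38, 0 of the further list and 0 of the S-phase list, with medians of the 38 from 0.0458 to 0.067. Without a filter 0 genes were called in all. Deviations from the group mean correlated at r = 0.0355 over genes between samples with the same replicate number. With 2 libraries a group both replicate numbers give this same value, so it cannot settle whether the numbers pair the samples. With the replicate block, the median was 0.0547, 0 of the 38 were called, and 236 genes were called in all, against 17 without it. With 2 libraries a group, the SE of a member was 0.06 to 0.11, which limits what could be called.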

Other observations

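Of the further mitosis genes, Ckap5, which encodes a microtubule polymerase of spindle poles, and Kif20b, a motor of late cytokinesis, were the 2 at an unadjusted p under 0.05 that were lower in Sirt7-/- cells, and both were chosen after their values were seen. Ckap5 had 198 and 182 CPM in Sirt7-/- cells, against 217 and 207 CPM in WT cells (log2 fold change -0.16 ± 0.07, adjusted p = 0.553, edgeR). Kif20b had 81.7 and 73.9 CPM in Sirt7-/- cells, against 90.0 and 84.7 CPM in WT cells (-0.17 ± 0.07, adjusted p = 0.575, edgeR). The processed pseudogene Ccnb1-ps had 65 and 60 counts in Sirt7-/- cells, against 50 and 51 counts in WT cells, and reads may be shared with Ccnb1, whose own counts were 4561 and 4073 in Sirt7-/- cells and 4279 and 4331 in WT cells. Of the 38 genes, 26 are overlapped by another annotated gene, and in 11 an overlapping gene held 5% or more of the counts of the member.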
